A study of Mus musculus with 15 samples.

Results

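Bone marrow-derived macrophages (BMDMs) of STAT5fl/fl mice were compared after culture in 4T1 CM or in rmGM-CSF, to describe which genes the complex medium of a tumor cell line moved further, less far or differently than a single recombinant cytokine. The members of the comparison were the count columns labelled STAT5fl/fl with 4T1 CM (2 libraries) or rmGM-CSF (2 libraries), which are 4 of the 15 libraries of the series. Each treatment was given to cells of the same 2 mice, numbered 112 and 113, so every library could be set against the other medium in its own mouse. The main test did not use this pairing, and a fit with the mouse as a block was run beside it. All mice were BALB/c and 6 wk of age and all carry loxP-flanked Stat5 alleles. The BMDMs were held for 2 h in 4T1 CM, which is medium conditioned by serum-starved cells of the BALB/c-derived mammary tumor line 4T1, or in 20 ng/mL recombinant mouse GM-CSF (rmGM-CSF). The study kept 4T1 cells in an RPMI-based medium, and the series has no library with unconditioned 4T1 medium. The labels give no GM-CSF dose for 4T1 CM. Tumor cell factors, the composition of the medium and the dose of GM-CSF therefore cannot be told apart in the differences below. The 2 STAT5fl/fl libraries in serum-free DMEM served as the untreated background, and the same 3 treatments of BMDMs from 3 STAT5cKO mice (numbered 114, 115 and 116), in which an iCre recombinase driven by the promoter of Csf1r (the M-CSF receptor gene) deletes Stat5, served as the other genotype. STAT5fl/fl groups have 2 mice each, and 1 further STAT5fl/fl replicate that the study's quality control removed is not analysed here.

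GM-CSF acts through a receptor of a ligand-binding alpha chain (Csf2ra) and a shared beta chain (Csf2rb), on which JAK2 phosphorylates STAT5, and in macrophages it also engages the MAP kinase, PI3 kinase and NF-kB pathways. STAT5 that enters the nucleus turns on its own inhibitors, among them Cish and the SOCS genes, and some genes, such as Bcl6, are repressed. Tumor cells secrete GM-CSF beside many other cytokines, growth factors, lipids and metabolites, and macrophages have receptors for most of them.

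Total counts of the 4 compared libraries lay between 16842646 (rmGM-CSF, mouse 112) and 21379480 (4T1 CM, mouse 112), and the 15 libraries ranged from 16016736 to 22883108. Stat5a had 29.0 to 45.0 CPM (normalized read counts scaled to a common library size) in the 6 STAT5fl/fl libraries and 0 to 0.142 CPM in the 9 STAT5cKO libraries, and Stat5b had 60.8 to 77.7 CPM and 0 to 0.189 CPM, respectively. The 10 macrophage markers were all detected, with a summed level of 24840 to 28590 CPM in the STAT5fl/fl libraries. Of 10 markers of mammary tumor epithelium, 9 had 3 counts or fewer in every STAT5fl/fl library, Epcam, Krt8 and Krt18 included. The exception was Cdh1, which encodes E-cadherin, at 0 CPM with DMEM, 1.31 and 1.13 CPM with rmGM-CSF and 3.06 and 4.33 CPM with 4T1 CM. Summed levels of the other marker lists were at most 0.318 CPM for lymphocytes (7 of 8 genes at the floor), 1.81 CPM for neutrophils (7 of 9), 2.37 CPM for fibroblasts (2 of 6) and 5.79 CPM for dendritic cells (1 of 8). Among the dendritic cell markers Zbtb46, a transcription factor of classical dendritic cells, had 0.546 and 0.506 CPM with DMEM, 3.86 and 1.66 with rmGM-CSF and 0.486 and 0.567 with 4T1 CM, and was lower with 4T1 CM than with rmGM-CSF (log2 -2.34, adjusted p = 0.00055). Zbtb46 was the only tested marker of the 8, and the others were all under 1 CPM. Of these, Flt3, Cd209a, Ccr7 and Itgae had a higher mean with 4T1 CM than with rmGM-CSF. Siglech was nearly level, and Clec9a and Xcr1 had a lower mean. Of the mast cell and basophil markers 4 of 5 were at the floor, and their sum, carried by Kit, the stem cell factor receptor, was 19.6 to 23.5 CPM with rmGM-CSF and 6.35 to 8.17 CPM with 4T1 CM.

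Of 13005 tested genes, 3968 (30.5%) differed between 4T1 CM and rmGM-CSF at an adjusted p under 0.01 by edgeR's quasi-likelihood test. With 4T1 CM 1790 of them were higher (13.8% of the tested genes) and 2178 were lower (16.7%). Among the larger differences the balance was the other way round, with 666 genes higher and 428 lower by at least 2-fold, 219 higher and 107 lower by at least 4-fold, and 84 higher and 31 lower by at least 8-fold. The median size of a called difference was 0.64 on the log2 scale. For the counts of list members called between the media below, the background is 13.8% higher and 16.7% lower. For counts against DMEM it is 15.9% higher and 12.6% lower with rmGM-CSF, and 19.2% and 18.2% with 4T1 CM. All 3968 called genes moved the same way in both mice and had no overlap between the 2 pairs of libraries. With 2 libraries a group, a call nearly requires both, so neither adds support to a call. No overlap was seen for 9160 of all 13005 tested genes, the called ones included. Across the 13005 genes, the log2 difference of mouse 112 and that of mouse 113 were correlated at 0.831 (Pearson) and 0.761 (Spearman), a description over genes that are not independent of each other. Here and below, a fit without mouse 112 or mouse 113 leaves 1 library for each medium and takes its spread from the other groups. Fewer genes were called in these fits, and a call kept or lost there is a description, not a test of replication. In RNA of whole cultures, a lower level in each cell and a smaller share of cells with the transcript cannot be told apart.

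**Figure D1:**
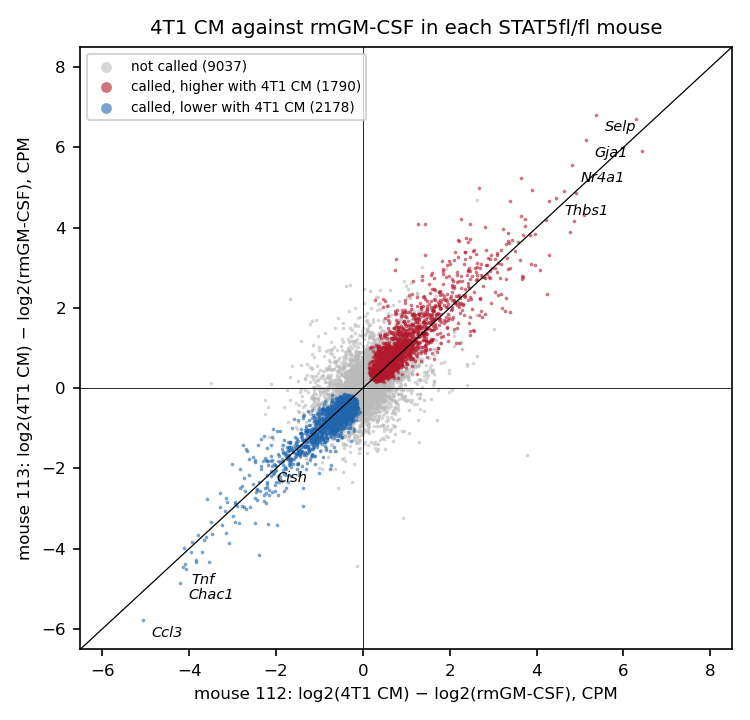
Each point is a tested gene, plotted by its log2 difference of 4T1 CM minus rmGM-CSF in mouse 112 (x axis) and in mouse 113 (y axis), with 1790 genes called higher in red, 2178 called lower in blue and the rest in gray. The called genes lie along the diagonal in the upper right and lower left, from Ccl3 and Tnf at the lower end to Gja1 and Selp at the upper end.

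The targets of STAT5 moved in both directions. Against DMEM, rmGM-CSF raised 13 of the 17 tested genes in a list of STAT5 targets and cytokine feedback genes and lowered 1 (15.9% and 12.6% of all tested genes), and 4T1 CM raised 12 and lowered 3 (19.2% and 18.2%). Set directly against each other, 8 of the 17 were lower with 4T1 CM than with rmGM-CSF, 5 were higher and 4 did not pass the test, with a median log2 difference of -0.41, beside 0.0063 over all tested genes. The lower ones were Cish, Socs3, Pim1, Pim3, Ccl17, Ccl22, Irf4 and Mcl1, and the higher ones were Socs2, Osm, Ccnd2, Il1rn and Bcl6, the calls of Mcl1 and Ccnd2 being lost without mouse 112 (adjusted p = 0.0148 and 0.0231). In the following, paired values are those of mouse 112 and mouse 113, in this order, in normalized CPM.

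Cish, an SH2 protein that binds the activated cytokine receptor and limits STAT5, had 0.273 and 0.0843 CPM with DMEM, 149.6 and 146 with rmGM-CSF and 33.0 and 38.6 with 4T1 CM. Both media lifted it far above DMEM, but the 4T1 CM libraries stood below both rmGM-CSF libraries in either mouse, 4.13-fold lower (log2 difference -2.05 ± 0.089 SE, adjusted p = 1.28e-11). Socs3, the feedback inhibitor of receptors that signal through gp130 and G-CSF, rose from 2.41 and 2.61 CPM to 680.1 and 653 with rmGM-CSF and to 310.4 and 311 with 4T1 CM. The difference was 2.14-fold (log2 -1.10 ± 0.065, adjusted p = 5.64e-10), and the values within a treatment lay close together. Pim1, a serine/threonine kinase that favors survival, had 48.0 and 41.1 CPM with DMEM, 548 and 535 with rmGM-CSF and 169.6 and 195 with 4T1 CM, which placed 4T1 CM between the other two without overlap (log2 difference between the media -1.57 ± 0.11, adjusted p = 5.84e-09).

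The chemokine genes Ccl17 and Ccl22, whose products attract T cells through CCR4, showed the widest gaps on the list. No count of Ccl17 was found with DMEM, against 24.6 and 21.8 CPM with rmGM-CSF and 3.75 and 2.63 CPM with 4T1 CM, which was 7.22-fold lower (adjusted p = 3.94e-11). Ccl22 had 1 and 0.843 CPM with DMEM, 21.7 and 16.4 with rmGM-CSF and 3.79 and 1.496 with 4T1 CM, 7.07-fold lower with 4T1 CM than with rmGM-CSF (adjusted p = 2.46e-07). Irf4, a transcription factor of alternatively activated macrophages and dendritic cells, followed another course. It had 21.8 and 22.9 CPM with DMEM and 29.3 and 29.3 with rmGM-CSF, a difference that did not pass the test (adjusted p = 0.0143), and 6.27 and 6.45 with 4T1 CM, below both other treatments in both mice (log2 -2.20 ± 0.14 against rmGM-CSF, adjusted p = 1.55e-09). Dendritic cells also express Ccl17, Ccl22 and Irf4. Their only tested marker, Zbtb46, moved in the same direction between the media (log2 -2.34), while their untested markers moved either way. A part of dendritic cells in these differences was not tested.

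Other genes of the same list went beyond rmGM-CSF. Socs2, which restrains growth hormone signaling and is a classical STAT5 target, had 0.818 and 0.379 CPM with DMEM, 28.8 and 28.4 with rmGM-CSF and 79.9 and 117 with 4T1 CM, 3.44-fold above rmGM-CSF (adjusted p = 4.97e-08). Osm, the gp130 cytokine oncostatin M, had 6.91 and 7.21 CPM with DMEM, 13.4 and 11.1 with rmGM-CSF and 51.6 and 50.5 with 4T1 CM, and its log2 rise over DMEM was 2.85 ± 0.12 with 4T1 CM and 0.79 ± 0.14 with rmGM-CSF. Il1rn, the natural antagonist of the interleukin-1 receptor, had 27.4 and 20.6 CPM with DMEM, 162 and 146 with rmGM-CSF and 557 and 379 with 4T1 CM, with the wider spread between mice in 4T1 CM and still no overlap (3.04-fold, adjusted p = 1.33e-06).

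Bcl6, a transcriptional repressor that STAT5 is known to silence, was the only list member that rmGM-CSF lowered. It fell from 139 and 153 CPM with DMEM to 16.5 and 16.5 with rmGM-CSF and to 30.5 and 30.2 with 4T1 CM. Its level with 4T1 CM was thus 1.84-fold higher than with rmGM-CSF (log2 0.88 ± 0.09, adjusted p = 5.01e-07), yet below DMEM (log2 -2.27 ± 0.079). The receptor genes themselves, Csf2ra and Csf2rb, did not pass the test between the media. Csf2rb had 1659 and 1679 CPM with rmGM-CSF and 1896 and 1898 with 4T1 CM, up from 618 and 617 with DMEM in both cases (log2 between the media 0.18 ± 0.08, adjusted p = 0.0726).

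**Figure D2:**
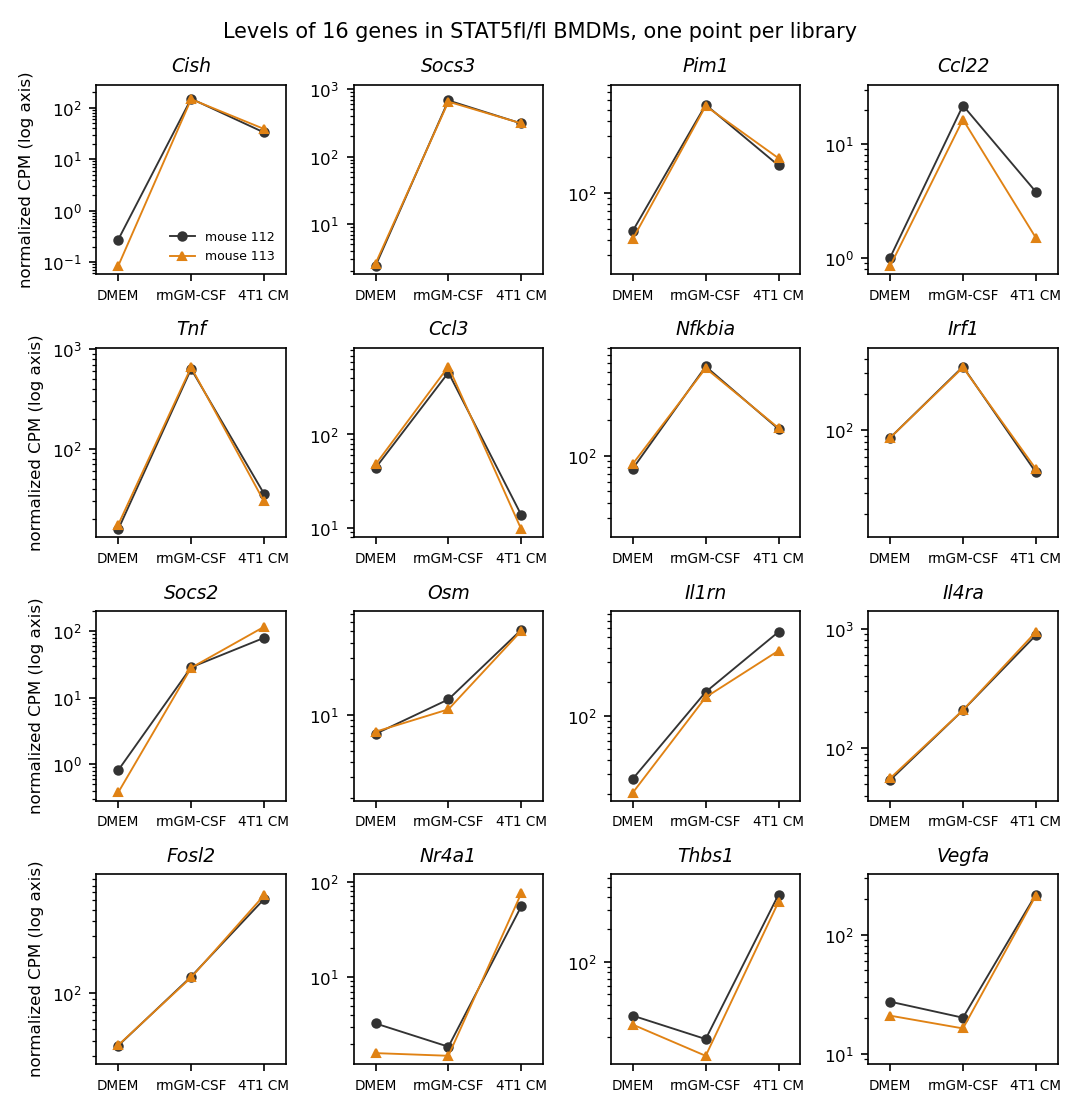
Normalized CPM (log axes) of 16 genes in STAT5fl/fl BMDMs with DMEM, rmGM-CSF and 4T1 CM, 1 line for each of the 2 mice. The rmGM-CSF points stand highest in the top 2 rows, from Cish to Irf1, and the 4T1 CM points stand highest in the bottom 2 rows, from Socs2 to Vegfa.

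The promoters of 4 genes of the STAT5 list are shown here because a STAT dimer binds a short palindrome, TTCNNNGAA, whose presence can be read directly. RefSeq promoters on GRCm38.p6 were at hand for 13 of the 17 tested list genes, and 4 of the 13 held a match in the 250 bases before to 50 bases after a start site. Of the 9336 tested genes with a promoter, 8.25% held the same letters in at least 1 promoter. The share was 8.38% of such genes called higher with 4T1 CM and 8.86% of those called lower. Capitals mark the match, each sequence runs 5′ to 3′ on the gene's strand, and it spans 250 bases before to 30 bases after the start. Cish (chr9:107296409-107296688, plus strand) holds matches that begin 0 and 11 bases after the start, Socs3 (chr11:117969337-117969616, minus strand) at position -154, Ccl17 (chr8:94810203-94810482, plus strand) at -99 and Bcl6 (chr16:23988823-23989102, minus strand) at -118. A further start of Bcl6 (chr16:23981254-23981533, minus strand, not printed) holds matches at -168, -122 and -88. A match describes the letters only and does not show that STAT5 binds there.
Cish: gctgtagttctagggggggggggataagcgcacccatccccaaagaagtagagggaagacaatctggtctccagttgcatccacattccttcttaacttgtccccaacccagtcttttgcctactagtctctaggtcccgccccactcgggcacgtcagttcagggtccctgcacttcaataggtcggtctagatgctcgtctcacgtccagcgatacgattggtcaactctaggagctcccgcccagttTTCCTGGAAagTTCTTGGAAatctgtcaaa
Socs3: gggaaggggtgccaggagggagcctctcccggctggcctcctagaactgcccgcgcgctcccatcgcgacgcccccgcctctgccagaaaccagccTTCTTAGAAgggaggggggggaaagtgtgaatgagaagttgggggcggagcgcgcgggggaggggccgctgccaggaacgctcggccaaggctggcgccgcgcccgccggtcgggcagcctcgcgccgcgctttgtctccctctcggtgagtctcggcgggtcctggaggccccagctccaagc
Ccl17: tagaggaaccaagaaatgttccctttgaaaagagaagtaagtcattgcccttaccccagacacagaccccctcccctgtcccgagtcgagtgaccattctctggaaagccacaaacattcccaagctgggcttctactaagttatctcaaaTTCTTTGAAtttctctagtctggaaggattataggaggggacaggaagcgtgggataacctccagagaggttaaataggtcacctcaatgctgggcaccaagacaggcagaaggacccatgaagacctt
Bcl6: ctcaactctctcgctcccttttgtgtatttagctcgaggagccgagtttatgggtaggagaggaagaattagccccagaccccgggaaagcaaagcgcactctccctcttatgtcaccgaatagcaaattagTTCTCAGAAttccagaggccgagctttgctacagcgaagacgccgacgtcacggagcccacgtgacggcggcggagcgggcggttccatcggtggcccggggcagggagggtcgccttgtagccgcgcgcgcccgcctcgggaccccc

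NF-kB genes were the list with the highest share of members lower with 4T1 CM among the 34 lists examined. NF-kB dimers rest in the cytoplasm until their inhibitors are degraded, and then induce inflammatory genes together with new inhibitors. Of 21 tested subunits, inhibitors and feedback genes, 20 were lower with 4T1 CM and none was higher, with a median log2 difference of -1.24. Against DMEM, rmGM-CSF raised 20 of the 21 (median 2.06), and 4T1 CM raised 15 and lowered 1 (median 0.72). The single member that did not pass the test between the media was Birc2, at 30.01 and 30.7 CPM with rmGM-CSF and 26.5 and 31.1 with 4T1 CM. As for every called gene, these 20 moved the same way in both mice.

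Nfkbia encodes I-kappa-B-alpha, which holds NF-kB in the cytoplasm and is itself among the first targets of the pathway. It had 77.8 and 85.2 CPM with DMEM, 559.5 and 541 with rmGM-CSF and 167 and 170.3 with 4T1 CM, 3.26-fold lower than rmGM-CSF without overlap (log2 -1.71 ± 0.093, adjusted p = 1.99e-10). Its promoter (chr12:55492618-55492897 of GRCm38.p6, minus strand) is printed as the example of the list because it holds the NF-kB letters GGGANTTTC on either strand at positions -113 and -28. Such a match was held by 1.2% of the tested genes with a promoter and by 2 of the 17 list genes with a promoter.
Nfkbia: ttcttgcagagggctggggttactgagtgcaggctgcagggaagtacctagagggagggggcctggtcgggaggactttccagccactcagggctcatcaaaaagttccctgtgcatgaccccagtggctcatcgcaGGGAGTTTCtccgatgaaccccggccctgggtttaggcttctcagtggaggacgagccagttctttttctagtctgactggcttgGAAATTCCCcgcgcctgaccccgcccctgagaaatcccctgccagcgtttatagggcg

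Tnfaip3, the ubiquitin-editing inhibitor A20, had 44.6 and 47.6 CPM with DMEM, 366 and 375 with rmGM-CSF and 84.3 and 90.1 with 4T1 CM, and the 4T1 CM libraries were 4.25-fold below rmGM-CSF (adjusted p = 5.45e-11). Icam1, the adhesion molecule ICAM-1, had 82.0 and 71.7 CPM with DMEM, 889.5 and 902 with rmGM-CSF and 116 and 121 with 4T1 CM and was 7.55-fold lower with 4T1 CM (adjusted p = 1.24e-11). Among the subunits, Rel (c-Rel) had 373 and 395 CPM with rmGM-CSF and 92.2 and 94.2 with 4T1 CM. With DMEM it had 95.7 and 99.5 CPM, from which 4T1 CM was not distinguished by the test (log2 -0.067 ± 0.091, adjusted p = 0.574). Tnfaip2 went further and fell below DMEM, from 434 and 403 to 325 and 298 CPM (log2 -0.42 ± 0.083, adjusted p = 4.35e-04), while rmGM-CSF raised it to 1788 and 1791 CPM. Nfkbie, a further I-kappa-B gene, kept more of the rise than these, with 25.1 and 30.7 CPM with DMEM, 283 and 289.6 with rmGM-CSF and 96.1 and 95.1 with 4T1 CM.

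**Figure D3:**
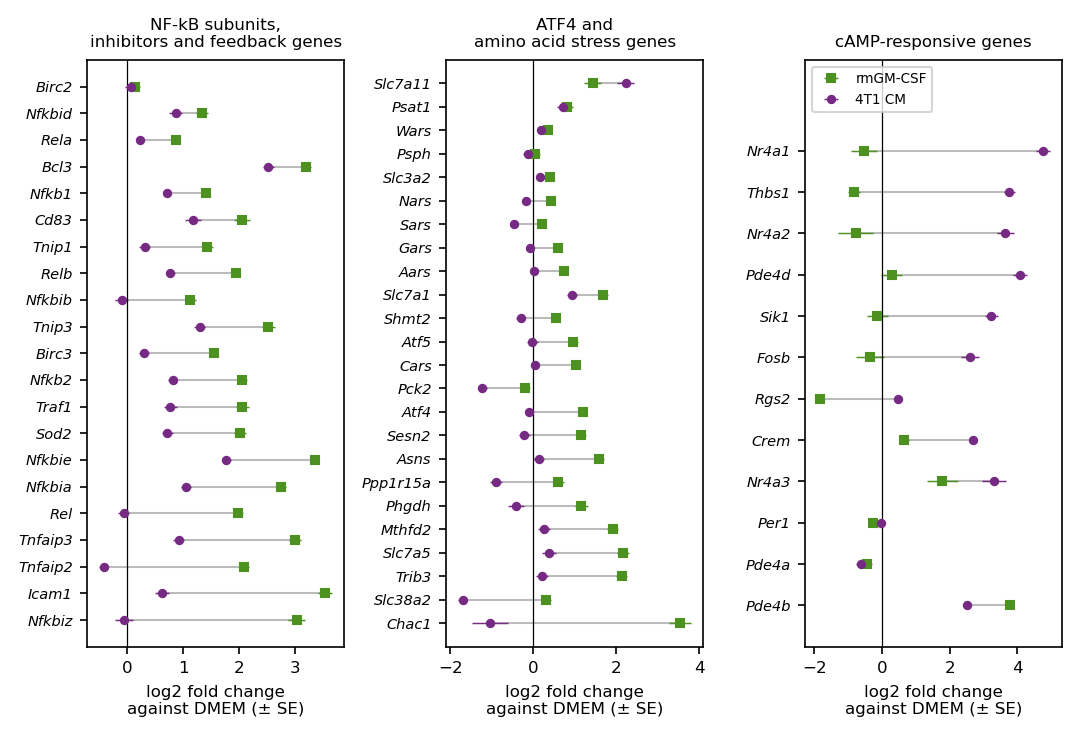
Log2 fold change against DMEM (x axis, ± SE) of rmGM-CSF (green squares) and 4T1 CM (purple circles) in STAT5fl/fl BMDMs, for the tested genes of 3 lists ordered by the difference between the media. In the NF-kB list and in the ATF4 list nearly every square lies to the right of its circle, and in the list of cAMP-responsive genes most circles lie to the right.

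The CC chemokine genes called between the media were all lower with 4T1 CM. Of 11 tested CC chemokine genes, 9 were lower with 4T1 CM and none was higher (median log2 -1.41), and rmGM-CSF had raised 9 of the 11 over DMEM where 4T1 CM raised 8 and lowered 1. Tnf, tumor necrosis factor, had 15.6 and 17.4 CPM with DMEM, 632 and 658 with rmGM-CSF and 35.6 and 29.8 with 4T1 CM. Its level with 4T1 CM was 19.7-fold below that with rmGM-CSF (log2 -4.30 ± 0.15, adjusted p = 1.85e-12) and above that with DMEM (log2 0.98 ± 0.15, adjusted p = 4.10e-05). Ccl3, which attracts monocytes and T cells, had 43.7 and 47.7 CPM with DMEM, 460.4 and 534 with rmGM-CSF and 13.7 and 9.65 with 4T1 CM. This was a 42.4-fold gap between the media (log2 -5.41 ± 0.15, adjusted p = 1.6e-13), and 4T1 CM also lay below DMEM (log2 -1.97 ± 0.15, adjusted p = 5.90e-09). Ccl4, its close relative, had 184 and 233 CPM with rmGM-CSF and 10.5 and 14.6 with 4T1 CM, where the latter was not distinguished from the 15.9 and 17.3 CPM of DMEM (adjusted p = 0.110).

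The monocyte chemoattractants Ccl2 and Ccl7 had smaller gaps. Ccl2 had 0.318 and 0.716 CPM with DMEM, 114 and 159 with rmGM-CSF and 45.9 and 58.3 with 4T1 CM, 2.63-fold lower than rmGM-CSF (adjusted p = 4.69e-06). Ccl7 had 50.9 and 77.2 CPM with rmGM-CSF and 20.3 and 28.1 CPM with 4T1 CM, 2.66-fold lower (adjusted p = 1.97e-06), with 3 counts or fewer in each DMEM library. Both media raised both genes over DMEM, and the groups did not overlap. Of the CXC and CX3C chemokines, 6 of 9 tested genes were lower with 4T1 CM and 2 were higher (4 and 1 without mouse 113). The neutrophil attractants Cxcl1 (86.2 and 95.9 against 6.57 and 5.62 CPM, 14.9-fold) and Cxcl2 (228 and 256 against 20.6 and 20.5 CPM, 11.8-fold) had the widest gaps of the 6. Cxcl14, a chemokine of many epithelia, was the opposite case, with 70.5 and 73.2 CPM with DMEM, 74.1 and 68.6 with rmGM-CSF and 353 and 387 with 4T1 CM (5.19-fold, adjusted p = 4.23e-10).

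Among 12 tested inflammatory and IL-6 family cytokine genes, 5 were lower with 4T1 CM and 3 were higher (3 and 4 without mouse 112, 3 and 2 without mouse 113). Il1a, interleukin-1 alpha, had 0.227 and 0.590 CPM with DMEM, 27.5 and 33.6 with rmGM-CSF and 7.004 and 7.27 with 4T1 CM, 4.29-fold lower with 4T1 CM than with rmGM-CSF (adjusted p = 3.96e-08). Il1b, interleukin-1 beta, was at 922 and 1238 CPM with rmGM-CSF and 582 and 781 with 4T1 CM, and both media raised it from 6.73 and 10.4 CPM. Its difference between the media passed the test (log2 -0.66 ± 0.18, adjusted p = 0.00717) but not without mouse 112 (0.0291), mouse 113 (0.0408) or with DESeq2 (0.0382). Il10, the anti-inflammatory cytokine interleukin-10, had 0.136 and 0.337 CPM with DMEM, no count in the rmGM-CSF libraries and 0.292 and 0.722 CPM with 4T1 CM, at least 2.92-fold higher than rmGM-CSF against a floor of 3 counts per library, and it was not called without mouse 113 (adjusted p = 0.0935). Tnfsf9, the ligand of the T cell costimulator 4-1BB, had 33.2 and 30.4 CPM with rmGM-CSF and 4.72 and 3.92 with 4T1 CM (7.33-fold lower, adjusted p = 5.68e-11).

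Acod1, which makes the antimicrobial metabolite itaconate, had 5.78 and 5.01 CPM with DMEM, 312 and 336 with rmGM-CSF and 18.4 and 14.8 with 4T1 CM (19.5-fold lower with 4T1 CM than with rmGM-CSF, adjusted p = 5.64e-10). Nos2, the inducible nitric oxide synthase, had 3.67 and 3.27 CPM with rmGM-CSF and 3 counts or fewer in each 4T1 CM library, at least 23.1-fold lower. Gbp5, an interferon-inducible guanylate-binding protein of the inflammasome, had 3.96 and 3.41 CPM with DMEM, 189 and 232 with rmGM-CSF and 13.6 and 18.4 with 4T1 CM (13.2-fold). All of these were separated without overlap in both mice. Irf1, a transcription factor downstream of interferon gamma and NF-kB, had 86.5 and 86.5 CPM with DMEM, 342 and 337 with rmGM-CSF and 44.5 and 47.5 with 4T1 CM, the lowest of the 3 treatments (adjusted p = 1.64e-12 between the media and 3.40e-07 against DMEM). Of 29 interferon-stimulated genes, 18 did not pass the test, 5 were higher and 6 lower with 4T1 CM, or 17.2% and 20.7% beside 13.8% and 16.7% over all tested genes, with 3 and 6 without mouse 112 and 1 and 6 without mouse 113, and the lower ones were Irf1, Cxcl10, Gbp2, Gbp3, Gbp5 and Gbp7. The higher ones were Irf8 (252 and 259.8 against 358 and 416 CPM) and Mx2, Oas2, Oas3 and Usp18, of which Oas2 and Oas3 were not called with either mouse left out and Mx2 and Usp18 not without mouse 113 (adjusted p = 0.0240 and 0.0658 for Oas2, 0.0757 and 0.0229 for Oas3, 0.0147 for Mx2 and 0.0446 for Usp18).

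4T1 CM went beyond GM-CSF in genes that respond to cAMP, the second messenger that receptors for prostaglandins, adenosine and other small ligands raise or lower. Of 12 tested genes in this list, 9 were higher with 4T1 CM and 1, the phosphodiesterase gene Pde4b, was lower, with a median log2 difference of 2.63. Against DMEM, 4T1 CM raised 10 of the 12 and lowered 1, and rmGM-CSF raised 3 and lowered 2. Over all tested genes 4T1 CM raised 19.2% and lowered 18.2%, and rmGM-CSF raised 15.9% and lowered 12.6%. As for every called gene, the 9 higher ones and Pde4b moved the same way in both mice. The list holds genes that other signals also induce, the NR4A receptors and Fosb among them.

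Nr4a1, an orphan nuclear receptor that restrains inflammatory gene expression in macrophages, had 3.27 and 1.601 CPM with DMEM, 1.87 and 1.501 with rmGM-CSF and 55.1 and 75.5 with 4T1 CM. Only the 4T1 CM libraries stood apart, 38.9-fold above rmGM-CSF (log2 5.28 ± 0.25, adjusted p = 3.07e-11), and rmGM-CSF was not distinguished from DMEM by the test (adjusted p = 0.305). Pde4d, a cAMP phosphodiesterase, had 2.87 and 2.57 CPM with DMEM, 3.80 and 2.90 with rmGM-CSF and 50.2 and 41.7 with 4T1 CM (13.8-fold). Crem, a cAMP-response element modulator, had 11.0 and 14.96 CPM with DMEM, 20.4 and 20.4 with rmGM-CSF and 84.6 and 82.5 with 4T1 CM (4.10-fold). Rgs2, which shortens signaling by G protein-coupled receptors, was lowered by rmGM-CSF from 172 and 171 to 49.3 and 47.5 CPM and stood at 210.3 and 268 with 4T1 CM, above both (log2 against rmGM-CSF 2.31 ± 0.10, adjusted p = 1.91e-11). Pde4b moved against the rest of the list, with 163 and 188 CPM with rmGM-CSF and 72.1 and 74.3 with 4T1 CM.

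Immediate early genes divided between the media. In the list of EGR, NR4A, KLF and IER genes 11 of 22 were higher and 4 lower with 4T1 CM, and among AP-1 factors 5 of 14 were higher and 4 lower. Fos had 29.9 and 30.1 CPM with DMEM, 36.3 and 29.0 with rmGM-CSF and 195 and 224 with 4T1 CM, 6.43-fold above rmGM-CSF (adjusted p = 3.62e-11). Fosl2, another FOS family member, had 36.3 and 36.7 CPM with DMEM, 138 and 136 with rmGM-CSF and 614 and 662 with 4T1 CM, a stepwise order in which every treatment was separate from the next (log2 between the media 2.22 ± 0.081, adjusted p = 2.66e-12). On the other side, Atf3, a repressor of inflammatory genes, had 449.5 and 413 CPM with DMEM, 386 and 362 with rmGM-CSF and 103 and 102 with 4T1 CM (log2 -1.87 ± 0.086, adjusted p = 2.58e-11). Batf3, a factor of cross-presenting dendritic cells, had 6.04 and 7.13 CPM with rmGM-CSF and 0.924 and 0.825 CPM with 4T1 CM, beside 0.728 and 0.969 CPM with DMEM. The only tested dendritic cell marker, Zbtb46, moved in the same direction (log2 -2.34) and the untested ones moved either way. A part of dendritic cells in this was not tested. Egr2 was 3.71-fold lower with 4T1 CM (277 and 288 against 79.5 and 72.4 CPM), while Egr1 was not distinguished between the media (12.4 and 9.92 against 14.1 and 15.7 CPM, adjusted p = 0.0244).

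Of the feedback inhibitors of the MAP kinases, 6 of 14 were higher and 4 lower with 4T1 CM (42.9% and 28.6%, beside 13.8% and 16.7% of all tested genes). Dusp6, a phosphatase specific for ERK, had 13.0 and 17.0 CPM with DMEM, 18.7 and 19.8 with rmGM-CSF and 115 and 162 with 4T1 CM (7.19-fold above rmGM-CSF, adjusted p = 2.26e-09). Dusp5, the nuclear ERK phosphatase, had 2.09 and 2.32 CPM with DMEM, 7.41 and 6.17 with rmGM-CSF and 53.8 and 68.3 with 4T1 CM (9.03-fold). For both, the rmGM-CSF libraries lay far nearer to DMEM than to 4T1 CM. Dusp2 had 16.2 and 15.2 CPM with rmGM-CSF and 3.40 and 4.33 with 4T1 CM and was 4.06-fold lower (adjusted p = 4.30e-08).

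TGF-beta signals through SMAD proteins, whose targets include their own inhibitors. Of 12 tested TGF-beta and BMP targets 6 were higher and 2 lower with 4T1 CM, and 5 and 0 with either mouse left out, the calls of Tgif1, Skil and Id3 being those lost (adjusted p = 0.0410, 0.0150 and 0.0470 without mouse 112). Pmepa1, an inhibitor of SMAD signaling, had 5.002 and 3.58 CPM with DMEM, 9.28 and 5.04 with rmGM-CSF and 124 and 95.0 with 4T1 CM (15.5-fold, adjusted p = 5.64e-10). Smad7, the inhibitory SMAD, was lowered by rmGM-CSF from 9.37 and 8.17 to 3.92 and 3.59 CPM and reached 32.9 and 34.4 CPM with 4T1 CM (8.96-fold). Outside the list, Tgfbi, a matrix protein named for its induction by TGF-beta, had 85.6 and 97.4 CPM with DMEM, 139.9 and 135 with rmGM-CSF and 1422 and 1710 with 4T1 CM, 11.4-fold higher with 4T1 CM than with rmGM-CSF (adjusted p = 2.51e-12).

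Several angiogenic and tissue-remodeling genes were far higher with 4T1 CM. Vegfa, the vascular endothelial growth factor, had 27.3 and 20.9 CPM with DMEM, 20.1 and 16.3 with rmGM-CSF and 216 and 212 with 4T1 CM, 11.8-fold above rmGM-CSF (log2 3.56 ± 0.17, adjusted p = 5.45e-11), and rmGM-CSF was not distinguished from DMEM by the test (adjusted p = 0.0868). Thbs1, the matricellular protein thrombospondin-1, had 31.6 and 26.1 CPM with DMEM, 19.2 and 13.4 with rmGM-CSF and 421 and 361 with 4T1 CM, lowered by rmGM-CSF and raised by 4T1 CM (24.2-fold between the media, adjusted p = 5.17e-12). Timp1, an inhibitor of matrix metalloproteinases, had 0.318 and 0.379 CPM with DMEM, 0.498 and 1.02 with rmGM-CSF and 11.6 and 11.0 with 4T1 CM (14.5-fold). Fgf2, basic fibroblast growth factor, had 1 count in all in the 4 libraries with rmGM-CSF or DMEM and 8.22 and 8.82 CPM with 4T1 CM, at least 49.0-fold higher than with rmGM-CSF. Across the lists, 7 of 23 matrix and protease genes were higher and 3 lower (Mmp12, Mmp13 and Plau, of which Mmp12 and Plau were not called without mouse 112, at adjusted p = 0.0220 and 0.0775, or without mouse 113, at 0.0699 and 0.0195), and 3 of 15 growth factors were higher and 5 lower, Igf1 with 594 and 704 against 355 and 394 CPM among the latter. With mouse 112 or mouse 113 left out the growth factors gave 2 higher and 3 lower. Hbegf, an EGF receptor ligand, was lower with 4T1 CM at 15.9 and 12.9 CPM than with rmGM-CSF at 26.8 and 26.9 CPM, a call lost without mouse 113 (adjusted p = 0.0159).

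Of 23 targets of hypoxia-inducible factors, Vegfa included, 9 were higher with 4T1 CM and 2 lower (10 and 4 with the mouse as a block, 9 and 1 without mouse 112, 8 and 1 without mouse 113). Mxi1, an antagonist of MYC, had 40.5 and 45.2 CPM with DMEM, 27.6 and 29.4 with rmGM-CSF and 114 and 115 with 4T1 CM. Pfkfb3, which makes the activator of phosphofructokinase, had 65.0 and 59.96 CPM with DMEM, 58.3 and 42.6 with rmGM-CSF and 202 and 169.7 with 4T1 CM, and Hilpda, a lipid droplet protein, 4.55 and 4.17 CPM with DMEM, 5.98 and 5.90 with rmGM-CSF and 19.6 and 21.4 with 4T1 CM. 4T1 CM stood above DMEM for all 3, while rmGM-CSF lowered Mxi1 and did not pass the test against DMEM for the other two. Bnip3, Egln3, P4ha1 and Pgk1 of the same list did not pass the test (log2 differences of -0.18, -0.37, 0.11 and 0.16).

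ATF4 is the transcription factor that cells translate when amino acids run short, and its targets import, make and charge amino acids. Of 24 tested genes of ATF4 and the amino acid response, 19 were lower with 4T1 CM than with rmGM-CSF and 1, Slc7a11, was higher, with a median log2 difference of -0.98. Against DMEM, rmGM-CSF raised 20 and lowered none (median 0.88), and 4T1 CM raised 3 and lowered 4 (median -0.05). Over all tested genes rmGM-CSF raised 15.9% and lowered 12.6%. The counts of 4T1 CM were not above its shares over all tested genes (19.2% raised and 18.2% lowered). Without mouse 112 or mouse 113, 19 or 18 of the 24 were called lower. Atf4 itself, the transcription factor of this response, had 220.4 and 229 CPM with DMEM, 491 and 541 with rmGM-CSF and 220.2 and 198 with 4T1 CM, which was not distinguished from DMEM by the test (adjusted p = 0.344). Trib3, a pseudokinase induced by ATF4, had 7.46 and 8.01 CPM with DMEM, 31.4 and 36.4 with rmGM-CSF and 9.68 and 8.10 with 4T1 CM. Chac1, which degrades glutathione, had 3.05 and 3.24 CPM with DMEM, 33.9 and 39.7 with rmGM-CSF and 1.75 and 1.29 with 4T1 CM, 24.0-fold lower with 4T1 CM than with rmGM-CSF (log2 -4.59 ± 0.31, adjusted p = 3.01e-09). The amino acid transporter gene Slc38a2 took a course of its own, with 430.5 and 443 CPM with DMEM and 519 and 561 with rmGM-CSF but 156 and 111 with 4T1 CM, below both. Slc7a11, the cystine transporter, was at 40.0 and 35.0 CPM with rmGM-CSF and 80.0 and 49.7 with 4T1 CM, and its call was lost without mouse 112 (adjusted p = 0.0587).

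FOXO targets and glucose-sensing arrestins moved the other way, as 9 of 13 were higher with 4T1 CM and 3 lower (8 and 3 without mouse 112, 4 and 3 without mouse 113). rmGM-CSF had lowered 9 of the 13 below DMEM. Txnip, the thioredoxin-interacting protein that restrains glucose uptake, had 901 and 933 CPM with DMEM, 436 and 436 with rmGM-CSF and 734 and 922 with 4T1 CM, where 4T1 CM was not distinguished from DMEM by the test (adjusted p = 0.217). Arrdc3, an arrestin family member outside the list, had 49.6 and 57.3 CPM with DMEM, 5.11 and 5.52 with rmGM-CSF and 64.9 and 111 with 4T1 CM (16.4-fold between the media, adjusted p = 9.20e-10). Sesn1 and Cited2 went against the list, with 92.6 and 101 against 23.7 and 28.7 CPM for Sesn1 and 129.7 and 149 against 41.8 and 44.0 CPM for Cited2.

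Receptors and surface molecules of macrophages were divided between the media. Il4ra, the receptor chain through which IL-4 and IL-13 act on macrophages, had 53.9 and 55.8 CPM with DMEM, 208 and 208 with rmGM-CSF and 886 and 943 with 4T1 CM, 4.39-fold above rmGM-CSF (log2 2.13 ± 0.086, adjusted p = 5.86e-12). Stat3 and Jak2 were likewise highest with 4T1 CM, Stat3 at 151 and 137 CPM with DMEM, 319 and 318 with rmGM-CSF and 722 and 726 with 4T1 CM and Jak2 at 55.1 and 55.9 CPM with DMEM, 145 and 153 with rmGM-CSF and 273 and 256 with 4T1 CM, in a STAT and JAK list with 4 of 11 genes higher and 1 lower (3 and 0 without mouse 112). Ccr1, a receptor of CCL3 and CCL5, had 3.59 and 3.20 CPM with DMEM, 37.0 and 37.0 with rmGM-CSF and 126 and 122 with 4T1 CM (3.36-fold between the media). In the list of chemoattractant receptors 4 of 12 were higher and 3 lower (3 and 1 with either mouse left out). Tgm2, a transglutaminase and a marker of alternatively activated macrophages, reached 3726 and 3734 CPM with 4T1 CM against 509.8 and 441 with rmGM-CSF and 162 and 146 with DMEM.

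Of 13 costimulatory and checkpoint ligands, 7 were lower and 5 higher with 4T1 CM (6 and 3 without mouse 112). Cd274, which encodes the checkpoint ligand PD-L1, had 98.0 and 82.1 CPM with DMEM, 366 and 377 with rmGM-CSF and 113 and 110.4 with 4T1 CM, 3.32-fold lower with 4T1 CM (adjusted p = 5.55e-11). Icosl, the ligand of the T cell receptor ICOS, had 16.5 and 17.0 CPM with DMEM, 177 and 198 with rmGM-CSF and 20.0 and 29.8 with 4T1 CM (7.55-fold lower). Cd86, a ligand of CD28, went the other way at 25.0 and 23.7 CPM with DMEM, 48.7 and 51.6 with rmGM-CSF and 169.6 and 186 with 4T1 CM (3.54-fold higher). Havcr2, the inhibitory receptor TIM-3, had 14.6 and 12.1 CPM with DMEM, 26.6 and 19.8 with rmGM-CSF and 136 and 98.4 with 4T1 CM (5.07-fold higher).

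Polarization markers were lower for 8 and higher for 3 of 12 tested genes. The higher ones were Il4ra, Tgm2 and Arg1, arginase 1 of alternatively activated macrophages, with 1 count in all in the rmGM-CSF libraries, none with DMEM and 2.53 and 2.12 CPM with 4T1 CM, at least 13.4-fold higher. The call of Arg1 was lost without mouse 112 (adjusted p = 0.0430), without mouse 113 (0.0365) and with DESeq2 (0.0201). The lower ones included, beside Nos2 and Acod1, the lectin genes Mgl2 (3.17 and 3.16 against 0.827 and 0.980 CPM) and Clec10a (25.6 and 21.8 against 4.77 and 8.05 CPM), which are also markers of alternative activation, and Ptgs2, cyclooxygenase 2 (46.3 and 51.6 against 16.8 and 16.2 CPM). Toll-like receptors and CD14 were lower for 6 and higher for 2 of 13 genes (5 and 1 without mouse 112). Tlr2 had 152 and 161 CPM with DMEM, 860.1 and 933 with rmGM-CSF and 255 and 275 with 4T1 CM (3.38-fold lower with 4T1 CM), and Tlr5, the flagellin receptor, had 0.637 and 0.421 CPM with DMEM, 0.685 and 0.536 with rmGM-CSF and 10.2 and 10.3 with 4T1 CM (16.8-fold higher).

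Other lists had few calls, or counts that changed with a mouse left out. Over all tested genes 13.8% were higher and 16.7% lower. The MHC class II list (11.1% and 11.1%) and the NRF2 list (19% and 14.3%) lay near these shares and do not stand out. The lysosome (0% and 17.65%) and cholesterol (12.5% and 0%) lists were near or below them in both directions. Shares were 2.94% and 32.35% for ribosome biogenesis, 6.25% and 31.25% for p53 targets and 50% and 6.25% for endoplasmic reticulum stress. They were 16.7% and 50% for heat shock and 14.3% and 28.6% for the 7 ligands and receptors. Against DMEM all tested genes gave 15.9% higher and 12.6% lower with rmGM-CSF, and 19.2% and 18.2% with 4T1 CM. None of 17 lysosome genes was higher and 3 were lower (5 calls, 2 of them higher, with the mouse as a block, and 1 without mouse 113). MHC class II genes gave 1 higher and 1 lower of 9 (none and 1 without mouse 113, 2 and 1 with the mouse as a block), among them Cd74 at 1786 and 1210 against 1816 and 1309 CPM (adjusted p = 0.850), with mouse 112 above mouse 113 in each treatment. Of 24 cholesterol synthesis genes 3 were higher, 8 with the mouse as a block and 1 with either mouse left out, and 4T1 CM raised 13 of them over DMEM where rmGM-CSF raised 6 and lowered 1. Ribosome biogenesis genes gave 11 lower and 1 higher of 34, but 5 lower without mouse 112 and no call without mouse 113. Endoplasmic reticulum stress genes gave 8 higher and 1 lower of 16 (4 and 1, or 3 and 1, with a mouse left out), heat shock genes 2 higher and 6 lower of 12 (1 and 4, or 2 and 1), and p53 targets 1 higher and 5 lower of 16 (2 and 4 without mouse 112). NRF2 antioxidant genes gave 4 higher and 3 lower of 21 (2 and 1 without mouse 112, 4 and 1 without mouse 113), led by Sqstm1, the autophagy adaptor p62, at 1080 and 1068 against 500.1 and 472 CPM. For the ligands and receptors of GM-CSF, M-CSF and G-CSF 1 of 7 genes was higher (Il3ra) and 2 lower (Csf1 and Csf3r), Csf1 with 40.1 and 38.4 against 25.1 and 18.6 CPM, and the call of Il3ra was lost without mouse 113 (adjusted p = 0.122).

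**Figure D4:**
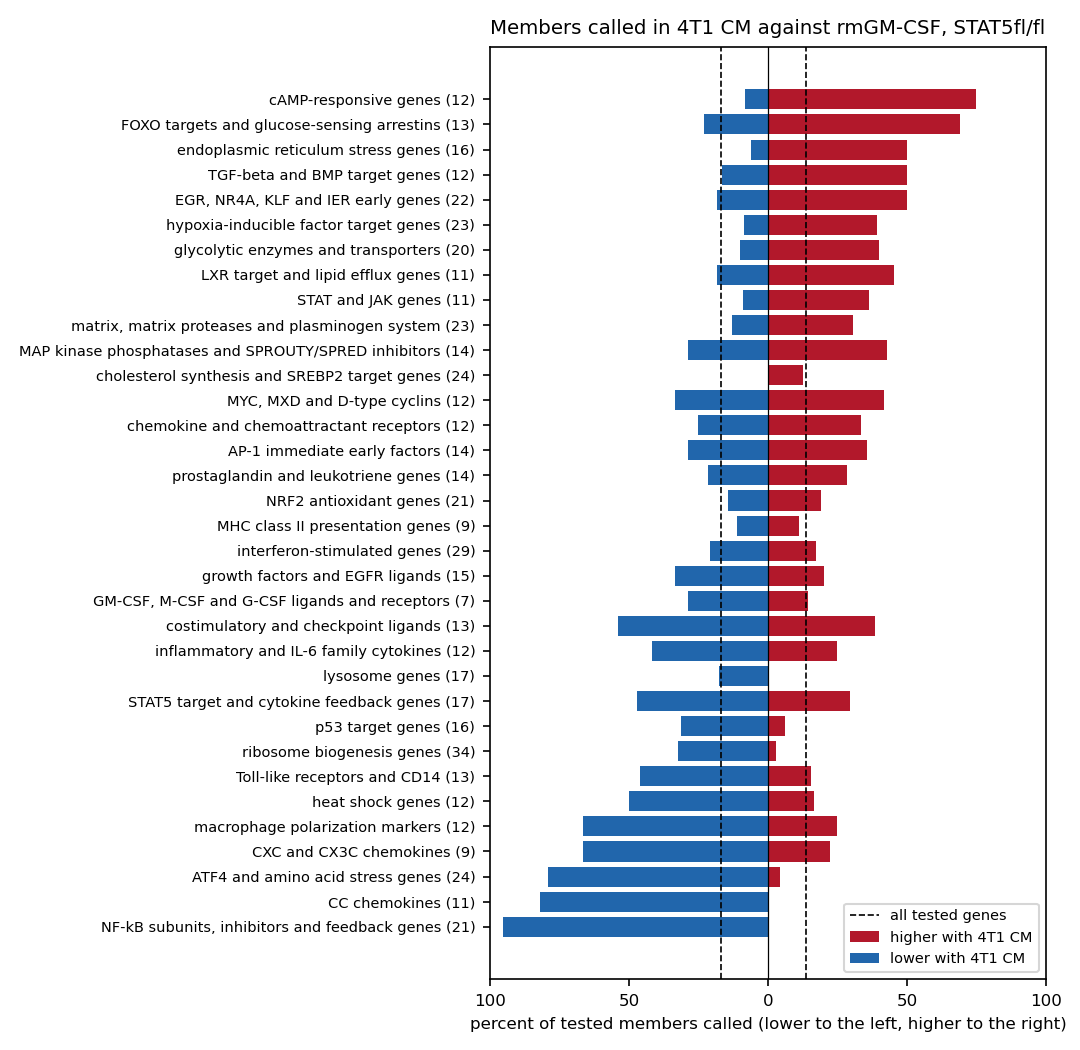
Percent of the tested members of 34 gene lists (number tested in parentheses) that were called higher (red, to the right) or lower (blue, to the left) with 4T1 CM than with rmGM-CSF in STAT5fl/fl BMDMs. The dashed lines mark all tested genes, at 13.8% higher and 16.7% lower, and the NF-kB, CC chemokine and ATF4 lists reach furthest to the left, the cAMP-responsive list furthest to the right.

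Some genes were called against DMEM with both media but in opposite directions. Those furthest apart in favor of 4T1 CM were Thbs1, Arrdc3, Thbd, E2f2 and Ctla2b. Thbd, the anticoagulant thrombomodulin, had 9.14 and 9.78 CPM with DMEM, 2.49 and 2.04 with rmGM-CSF and 24.0 and 33.1 with 4T1 CM, so that each medium was separate from DMEM on its own side (log2 -2.07 ± 0.23 and 1.59 ± 0.15). E2f2, a cell cycle transcription factor, had 2.87 and 2.27 CPM with DMEM, 1.06 and 0.697 with rmGM-CSF and 11.3 and 9.39 with 4T1 CM. On the other side were Ccl3, Rasgef1b, Slco4a1, Tal2 and Efna2. Rasgef1b, a guanine nucleotide exchange factor induced by Toll-like receptors, had 201 and 197 CPM with DMEM, 647 and 665 with rmGM-CSF and 52.8 and 50.7 with 4T1 CM, with the smallest adjusted p of the comparison beside Ccl3 (1.6e-13 each). Slco4a1, an organic anion transporter, had 118 and 126 CPM with DMEM, 248 and 258 with rmGM-CSF and 29.3 and 17.7 with 4T1 CM, the libraries of the 2 mice differing more with 4T1 CM than with the other treatments. These comparisons share their libraries, so their values are given side by side and no overlap between them was computed.

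Among the genes furthest above rmGM-CSF several were near the floor without 4T1 CM. Selp, the adhesion receptor P-selectin, had 0.436 and 0.161 CPM with rmGM-CSF and 22.0 and 28.9 with 4T1 CM (86.3-fold, adjusted p = 2.66e-12). Nt5e, the ectonucleotidase CD73 that generates adenosine, had 3 counts or fewer in each DMEM and rmGM-CSF library and 17.1 and 15.6 CPM with 4T1 CM, at least 93.9-fold higher than with rmGM-CSF. Gja1, the gap junction protein connexin 43, had 0.227 and 0.464 CPM with DMEM, 1.62 and 0.751 with rmGM-CSF and 60.1 and 61.0 with 4T1 CM (52.2-fold). Gpr35, a G protein-coupled receptor, had 1 and 0.885 CPM with DMEM, 1.06 and 1.501 with rmGM-CSF and 39.01 and 31.6 with 4T1 CM (27.2-fold). For these 4 genes rmGM-CSF did not pass the test against DMEM (adjusted p = 0.0463, 0.996, 0.0603 and 0.565).

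To see where the gap between the media differed with genotype, the same comparison was made in the 3 STAT5cKO mice, which share no library with the STAT5fl/fl mice. The series has no library with iCre and intact Stat5. Loss of STAT5 and presence of iCre therefore cannot be told apart. There 4434 of 13005 genes (34.1%) differed between 4T1 CM and rmGM-CSF. Of the genes called in either genotype, 3140 were called in both with the same direction, which is 79.1% of the STAT5fl/fl calls and 70.8% of the STAT5cKO calls, and 19 were called in opposite directions. Across genes, the log2 differences of the genotypes were correlated at 0.849 (Pearson) and 0.804 (Spearman). The test of the difference itself, the interaction, called 191 genes (1.47%), 19 with a higher and 172 with a lower log2 difference in STAT5fl/fl than in STAT5cKO. Of the 3968 genes called in STAT5fl/fl, 157 (3.96%) had an interaction, and 121 of them had a smaller or opposite difference in STAT5cKO BMDMs. Without mouse 112 or mouse 113 the interaction called 91 or 79 genes.

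**Figure D5:**
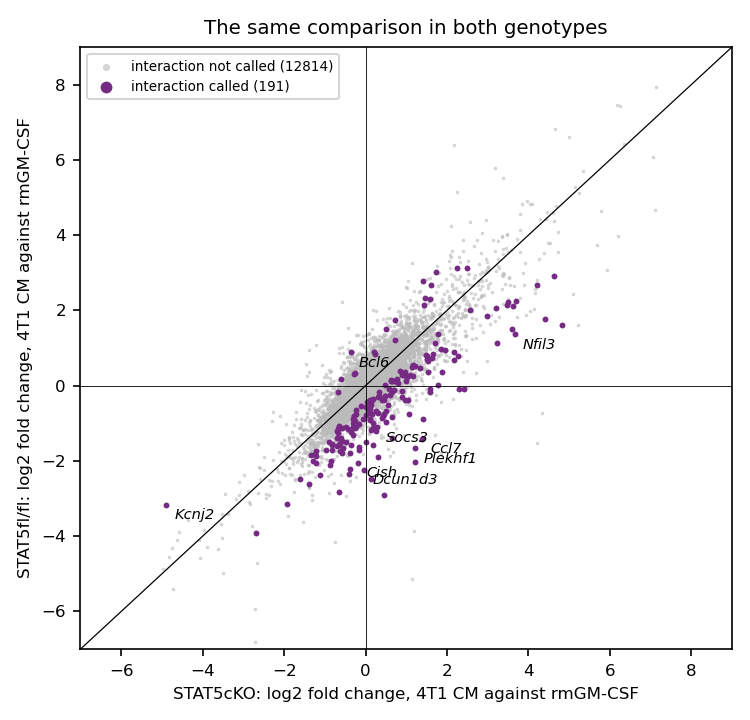
Log2 fold change of 4T1 CM against rmGM-CSF for each tested gene in STAT5cKO BMDMs (x axis) and STAT5fl/fl BMDMs (y axis), with the 191 genes of a called interaction in purple. Most genes lie near the diagonal, while Cish and Dcun1d3 lie near the vertical axis and Socs3, Ccl7 and Plekhf1 to its right, all 5 of them below the horizontal axis, that is lower with 4T1 CM in STAT5fl/fl.

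The STAT5 list held 8 of the called interactions among its 17 genes, 7 with a lower and 1 with a higher value in STAT5fl/fl. Over all tested genes an interaction was called for 1.47%, with a lower value in STAT5fl/fl for 172 of the 191. In the STAT5cKO mice Cish had 2.25, 2.63 and 1.98 CPM with rmGM-CSF and 2.08, 1.98 and 2.04 with 4T1 CM (mice 114, 115 and 116), with overlap between the media (log2 -0.19 ± 0.17; interaction -1.86 ± 0.20, adjusted p = 1.83e-05). Socs3 had 162, 181 and 169.6 CPM with rmGM-CSF and 212, 214 and 202 with 4T1 CM in STAT5cKO, the reverse order of STAT5fl/fl (log2 0.29 ± 0.054, adjusted p = 2.97e-04; interaction -1.39 ± 0.085, adjusted p = 7.92e-08). Socs2 had 0.637, 0.847 and 0.638 CPM with rmGM-CSF and 13.5, 15.2 and 17.3 with 4T1 CM, and its gap in favor of 4T1 CM was larger than in STAT5fl/fl (log2 4.41 ± 0.25; interaction -2.62, adjusted p = 1.19e-04). Bcl6, which both media lowered in STAT5fl/fl, had 153, 157 and 143 CPM with DMEM, 263, 265 and 276 with rmGM-CSF and 203, 198 and 224 with 4T1 CM in STAT5cKO, and its interaction was 1.25 ± 0.11 (adjusted p = 2.31e-06). Irf4, lower with 4T1 CM in STAT5fl/fl, had 8.09, 6.02 and 7.21 CPM with rmGM-CSF and 6.62, 5.38 and 4.43 with 4T1 CM in STAT5cKO (interaction -1.83, adjusted p = 2.85e-05).

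Outside that list the strongest interactions were of genes with varied roles. Nfil3, a bZIP repressor of circadian and immune genes, had 32.6 and 38.9 CPM with rmGM-CSF and 84.0 and 100.2 with 4T1 CM in STAT5fl/fl. In STAT5cKO it had 10.2, 10.8 and 8.94 CPM with rmGM-CSF and 131, 124 and 126 with 4T1 CM, a wider gap (interaction -2.30 ± 0.14, adjusted p = 7.92e-08). Ptgs2 had 27.3, 30.5 and 29.2 CPM with rmGM-CSF and 30.9, 35.0 and 33.7 with 4T1 CM in STAT5cKO, against a gap in favor of rmGM-CSF in STAT5fl/fl (interaction -1.76 ± 0.13, adjusted p = 2.76e-07). Kcnj2, an inward rectifier potassium channel, was lower with 4T1 CM in both genotypes and by more in STAT5cKO (log2 -3.16 and -4.90, adjusted p of the interaction = 3.72e-06).

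The same media were compared in STAT5cKO BMDMs, where 34.1% of all tested genes were called in either direction. There 18 of the 21 NF-kB genes were lower with 4T1 CM and 1 higher. Of the 24 ATF4 genes 17 were lower and 1 higher, and of the 12 cAMP-responsive genes 10 were higher and 1 lower. Of the 11 CC chemokine genes 4 were lower, 3 higher and 4 did not pass the test in STAT5cKO, with a median log2 difference of -0.47 beside -1.41 in STAT5fl/fl. Tnf had 704, 716 and 729 CPM with rmGM-CSF and 27.6, 20.2 and 31.6 with 4T1 CM in STAT5cKO, and no interaction was called (log2 0.46 ± 0.17, adjusted p = 0.248). Vegfa had 30.3, 22.6 and 25.2 CPM with rmGM-CSF and 383, 322 and 371 with 4T1 CM (interaction -0.22 ± 0.22, adjusted p = 0.784). Interactions were called for 5 of 21 NF-kB genes (Nfkb2, Rel, Nfkbie, Cd83 and Bcl3) and for 4 of 11 CC chemokine genes (Ccl2, Ccl6, Ccl7 and Ccl22), beside 1.47% of all tested genes. All had a lower log2 difference in STAT5fl/fl. So did 172 of all 191 called interactions, and the direction is not particular to these lists. Ccl7 had 1.67, 2.05 and 2.55 CPM with rmGM-CSF and 5.06, 5.81 and 5.21 with 4T1 CM in STAT5cKO, higher with 4T1 CM where it was lower in STAT5fl/fl (log2 1.38 ± 0.26; interaction -2.79 ± 0.30, adjusted p = 1.93e-05). Ccl5 passed none of these tests, and its STAT5cKO libraries with 4T1 CM had 3.73, 124 and 5.16 CPM, mouse 115 standing far above the others.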

How the data were processed

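Total RNA of BMDMs was sequenced as stranded TruSeq libraries, and the deposited table holds raw read counts of 55385 genes in 15 libraries. Per the labels and the study's methods, the authors trimmed reads with Trimmomatic 0.33, aligned them to GRCm38 with HISAT2 2.1.0 and counted properly paired, reverse-stranded fragments per gene with featureCounts 1.6.2. No count was seen in any library for 29501 genes. Here, genes over 1 CPM in at least 2 libraries (13005) were fitted with edgeR 4.0.16 (R 4.3.3), with RLE normalization, 6 groups of genotype and treatment and quasi-likelihood tests, and called at a Benjamini-Hochberg adjusted p under 0.01. Levels are normalized CPM, and log2 differences within a mouse used a prior count of 2. The script was tested on simulated data.

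Same-numbered libraries come from 1 mouse per the labels, and their deviations from the group means correlated at 0.12 in STAT5fl/fl and 0.161 to 0.214 in STAT5cKO, so a fit with the mouse as a block was run beside the fit without it. Other alternatives were TMM, other filters, the likelihood ratio test, DESeq2 1.42.0, other thresholds, thinned counts, fits of fewer libraries and leaving out each mouse. Bounds against a group at the floor used 3 counts per library, and floors cover counting error only. Promoters came from RefSeq on GRCm38.p6, were matched by symbol and were searched on both strands.

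The compared groups, gene lists, motifs and the rule for naming genes were chosen with earlier results of these data known. Of the genes past the threshold that moved alike in both mice without overlap, the rule took those with the largest fold, smallest adjusted p or largest CPM difference. Without this filter it took up to 5 members of each list by adjusted p. It also took genes called in opposite directions against DMEM, the leading interactions, Stat5a and Stat5b. Further list members were named after their values were seen, and a few list members are not reported here.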

Additional observations from a re-analysis of the deposited data

Results flagged for a closer look

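The difference between 4T1 CM and rmGM-CSF itself differed between STAT5fl/fl and STAT5cKO BMDMs for 191 genes by the interaction term of edgeR's quasi-likelihood test, at an adjusted p under 0.01. Leading ones in each direction were as follows, as the log2 difference in STAT5fl/fl minus that in STAT5cKO. It was positive for Kcnj2 (1.74), Bcl6 (1.25), Mylip (1.02) and Fgd3 (0.78). It was negative for Plekhf1 (-2.89), Nfil3 (-2.30), Dcun1d3 (-2.20), Ptgs2 (-1.76) and Socs3 (-1.39). Plekhf1, which encodes an endosomal protein, had 41.4 and 38.9 CPM with rmGM-CSF and 12.3 and 13.0 with 4T1 CM in STAT5fl/fl, and 2.50, 2.27 and 3.13 CPM with rmGM-CSF and 6.24, 6.37 and 5.57 with 4T1 CM in STAT5cKO. Dcun1d3, a regulator of cullin neddylation, had 97.1 and 122 CPM with rmGM-CSF and 23.8 and 22.9 with 4T1 CM in STAT5fl/fl, and 21.7, 22.6 and 21.5 CPM with rmGM-CSF and 21.9, 21.0 and 21.7 with 4T1 CM in STAT5cKO. Mylip, the ubiquitin ligase that degrades the LDL receptor, had 43.3 and 37.7 CPM with rmGM-CSF and 139.7 and 133 with 4T1 CM in STAT5fl/fl, and 86.6, 89.4 and 91.2 CPM with rmGM-CSF and 158, 131 and 155 with 4T1 CM in STAT5cKO. Fgd3 did not pass the test between the media in STAT5fl/fl (adjusted p = 0.0916), at 135 and 120.0 CPM with rmGM-CSF and 149.7 and 136 with 4T1 CM, and had 276, 279 and 262 CPM with rmGM-CSF and 176, 187 and 170.2 with 4T1 CM in STAT5cKO.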

How the results depend on the processing

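Of 319 called genes in the lists or named, none changed direction, 219 kept their call in every alternative other than a minimum fold change, and 64 or 82 lost it without mouse 112 or mouse 113 (of 316), where a lone library was assumed to vary like the other groups. With an absolute log2 fold change of at least 1, 1094 genes were called between the media in STAT5fl/fl, 1019 in STAT5cKO, 1533 for 4T1 CM and 1025 for rmGM-CSF against DMEM, and 78 in the interaction, since this asks more of each gene. With each mouse left out in turn, the counts ranged from 1696 to 3807 between the media in STAT5fl/fl, 2671 to 4720 for 4T1 CM and 1736 to 3618 for rmGM-CSF against DMEM, 3035 to 4221 in STAT5cKO and 79 to 143 in the interaction. The interaction called 302 genes with the likelihood ratio test, 308 with DESeq2 and 346 at an adjusted p under 0.05, and beyond the thresholds the cause was not tested. With the mouse as a replicate block, 4286 genes were called between the media in STAT5fl/fl (3912 shared), 5194 for 4T1 CM and 4007 for rmGM-CSF against DMEM, 4733 in STAT5cKO and 277 in the interaction. Among the 319 genes called without the block, it ended only the call of Mybbp1a (adjusted p = 0.0124), and it added calls in some lists, as in the cholesterol (3 to 8), hypoxia (11 to 14), lysosome (3 to 5) and STAT5 (13 to 14) lists. Fits of the 4 compared libraries called 3209 genes, and 4373 with the block. With 2 libraries a group, a difference that missed the threshold was not shown to be absent.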

Other observations

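Growth control genes of the MYC list gave 5 higher and 4 lower of 12 with 4T1 CM (4 and 2 without mouse 112). Myc had 7.59 and 8.89 CPM with DMEM, 62.1 and 68.1 with rmGM-CSF and 112 and 111 with 4T1 CM (1.72-fold between the media, adjusted p = 2.69e-06). Mycl, its paralog, was the reverse, with 4.05 and 5.09 CPM with rmGM-CSF and 3 counts or fewer in each 4T1 CM library, at least 30.4-fold lower. Cyclin D1 (Ccnd1) had 35.4 and 30.4 CPM with DMEM, 67.2 and 58.8 with rmGM-CSF and 193 and 181 with 4T1 CM. Odc1, ornithine decarboxylase of polyamine synthesis, had 12.3 and 13.2 CPM with rmGM-CSF and 42.5 and 60.6 with 4T1 CM (4.03-fold), and Smox, spermine oxidase of the same pathway, had 126 and 115 CPM with rmGM-CSF and 428 and 473 with 4T1 CM (3.74-fold).

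Metabolic genes also differed. Of 20 glycolytic genes 8 were higher and 2 lower with 4T1 CM (5 and 2 without mouse 112, 5 and 1 without mouse 113), among them the glucose transporter gene Slc2a1, at 32.3 and 36.3 CPM with DMEM, 135 and 151 with rmGM-CSF and 241 and 263 with 4T1 CM. Of 11 LXR and lipid efflux genes 5 were higher and 2 lower (3 and 2 without mouse 112), and the cholesterol exporters went apart. Abca1 was higher with 4T1 CM (359 and 351 against 866 and 869 CPM, adjusted p = 1.28e-07) and Abcg1 was lower (835 and 873 against 385 and 428 CPM, adjusted p = 4.00e-07). Scd2, a fatty acid desaturase, had 50.7 and 47.3 CPM with rmGM-CSF and 346 and 276 with 4T1 CM (6.34-fold). Of 14 prostaglandin and leukotriene genes 4 were higher and 3 lower (28.6% and 21.4%, beside 13.8% and 16.7% of all tested genes). The prostaglandin E2 receptors moved in opposite directions, with 6.10 and 4.34 CPM with rmGM-CSF and 28.0 and 31.5 with 4T1 CM for Ptger2 (EP2, 5.74-fold higher) and 268 and 289.5 CPM with rmGM-CSF and 88.5 and 98.4 with 4T1 CM for Ptger4 (EP4, 2.98-fold lower).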
